A study of Mus musculus with 3 samples.

Results

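The genes described here are 37 genes of glycolysis and of the response to low oxygen. They comprise 16 glycolytic enzymes, with both lactate dehydrogenase chains counted among them, and 21 other genes known as targets or parts of the pathway of the hypoxia-inducible factor, HIF. They were taken as a list by gene symbol, chosen with earlier results of these data known. Each was read from the brightest probe set, by the mean log2 signal over the 3 arrays, that carries its symbol and no other, which gave values for 34 of the 37 genes, out of 18193 genes with such a probe set. The arrays came from primary epidermal keratinocytes of neonatal ICR mice, 2 of them from RASSF9-/- mice (RASSF9-/- arrays 1 and 2) and 1 from a WT mouse, with 1 mouse and 1 culture plate behind each. The RASSF9-/- mice were homozygous for an insertion of a transgene encoding LMP1, a membrane protein of Epstein-Barr virus, which removed a piece of intron near the start of RASSF9. They stem from a single transgenic line and carry the transgene as well as the disruption, whereas WT has neither. All cells were harvested at confluence from serum-free keratinocyte medium low in calcium, after a time that is the same for every sample in the methods but 48 h for RASSF9-/- and 24 h for WT in the sample descriptions. If those descriptions are right, the time in culture and the genotype cannot be told apart.

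Glycolysis splits glucose into pyruvate in the cytosol. Hexokinases trap the sugar, phosphofructokinase makes the committed step, and lactate dehydrogenase turns pyruvate into lactate, which monocarboxylate transporters carry across the membrane. HIF is a transcription factor whose alpha subunit is hydroxylated by prolyl hydroxylases when oxygen is present and is then degraded. When oxygen is scarce, HIF binds a short DNA element near glucose transporters, most glycolytic enzymes and pyruvate dehydrogenase kinases, and raises their transcription. Epidermis has no blood vessels of its own, and its keratinocytes are known for a high rate of glycolysis.

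The deposited values are MAS5 signals, a linear brightness for each probe set that the authors scaled to a trimmed mean of 500 on every array. Control probe sets for bacterial transcripts, absent from mouse RNA, reached a signal of 78.4, and values under this level were treated as background. Rassf9 had signals of 59.6 and 120 on the RASSF9-/- arrays, against 478 on the WT array. The 8 keratinocyte markers examined, among them Krt5 and Krt14, were above background on every array, with summed signals of 143423 and 166589 on the RASSF9-/- arrays and 171684 on the WT array. These sums mostly reflect the brightest markers, such as Krt14 with 38752 and 38300 on the RASSF9-/- arrays, against 38140 on the WT array. Among the dimmer markers, Trp63 had 1460 and 1543 on the RASSF9-/- arrays, against 3239 on the WT array. Itga6 had 2614 and 4991 on the RASSF9-/- arrays, against 4038 on the WT array. All 5 melanocyte markers were above background too, with sums of 23710 and 33213 on the RASSF9-/- arrays and 27796 on the WT array. Of the 6 fibroblast markers, 6 and 4 were above background on the RASSF9-/- arrays and 5 on the WT array, with sums of 1035 and 811 against 1320. Of the 5 leukocyte markers, 3 and 2 were above background on the RASSF9-/- arrays and 2 on the WT array, with sums of 1347 and 2191 against 1276. Their defining marker Ptprc did not exceed 71.3, whereas Csf1r had 792 and 1686 on the RASSF9-/- arrays, against 784 on the WT array, and Cd68 had 351 and 407 on the RASSF9-/- arrays, against 395 on the WT array. Of the 4 endothelial markers, 2 and 1 were above background on the RASSF9-/- arrays and 1 on the WT array, with sums of 276 and 330 against 254. Among them Kdr had 157 and 211 on the RASSF9-/- arrays, against 136 on the WT array, and Pecam1 was at most at 11.9. The part of other cell types in the values below was not tested. The signal ratio of 3' to 5' probe sets of Gapdh, a sign of RNA quality, was 0.939 and 0.832 on the RASSF9-/- arrays and 0.841 on the WT array. In such bulk RNA, fewer cells of a type and less RNA per cell cannot be told apart.

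None of the 33 members that could be tested differed between RASSF9-/- and WT after adjustment over all 11089 genes tested (limma, adjusted p under 0.05), at which 0.0812% of all genes tested were higher in RASSF9-/- and 0% lower. At an unadjusted p under 0.05, 7 members were lower (2.43% of all genes tested) and 1 was higher (3.11% of all genes tested). Counted without a test, 18 members lay below WT on both RASSF9-/- arrays, against 32.7% of all genes tested. A further 4 were higher on both (33.6% of all genes tested), and for the other 11 the RASSF9-/- arrays lay on opposite sides of WT. At least 2-fold lower on both RASSF9-/- arrays were 8 members, or 24.2% of those tested, where 2.24% of all genes tested were. These were Pfkl, Pfkp, Aldoc, Pdk1, Pdk2, Slc2a3, Slc16a3 and Bnip3. Of these, Slc2a3 was bright enough to test only through the WT array, with 28.2 and 164 on the RASSF9-/- arrays, against 870 on the WT array. No member was at least 2-fold higher on both, where 2.89% of all genes tested were. As the list was chosen with earlier results of these data known, these shares describe it and are not a test. With RASSF9-/- array 1 alone, 9 members were at least 2-fold lower (5.19% of all genes tested) and 1 higher (5.83%). With RASSF9-/- array 2 alone, 10 members were at least 2-fold lower (8.91% of all genes tested) and 0 higher (6.87%). The gene nearest inside this 2-fold limit was Pfkl, whose smaller log2 difference had a size of 1.02, and the nearest outside was P4ha1 with 0.91. Both differences of a gene are taken from the same WT array, so they are not independent of each other. The spread in the test comes from the RASSF9-/- arrays alone. For each gene it is moderated by the spread of other genes of similar brightness, so a standard error is not that gene's own scatter. RASSF9-/- array 1 shares a date in the image names with the WT array and RASSF9-/- array 2 has another, so the differences of RASSF9-/- array 1 are those within a date.

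The glycolytic enzymes and the other HIF targets were separated. The latter is the name of a list, which also holds Hif1a, a subunit of HIF itself. Of the 14 glycolytic enzymes tested, 7 lay below WT on both RASSF9-/- arrays, 2 lay above it on both, 5 were opposite, and 3 were at least 2-fold lower on both. Their median log2 fold change was -0.24, with -0.33 on RASSF9-/- array 1 and -0.47 on RASSF9-/- array 2. Of the 19 other HIF targets tested, 11 were lower on both, 2 were higher on both, 6 were opposite, and 5 were at least 2-fold lower on both. Over the 20 with a probe set their median was -0.42, with -0.54 on RASSF9-/- array 1 and -0.69 on RASSF9-/- array 2. Over all genes tested the median was -0.01, with 0.05 on RASSF9-/- array 1 and -0.04 on RASSF9-/- array 2.

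**Figure D1:**
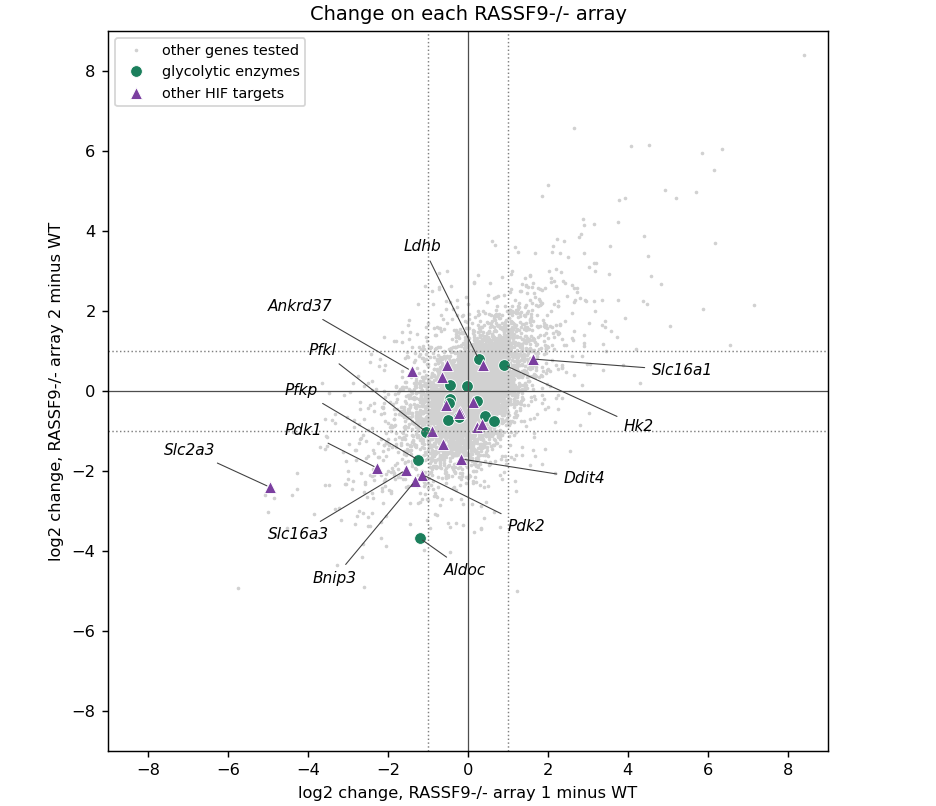
Log2 difference from the WT array on RASSF9-/- array 1 (horizontal axis) and on RASSF9-/- array 2 (vertical axis) for each gene tested, with glycolytic enzymes as circles, other HIF targets as triangles and all other genes tested in grey; dotted lines mark 2-fold. The 8 members at least 2-fold lower on both arrays lie in the lower left, Slc16a1 lies to the right at 1.62 and 0.80, and both axes share the WT array.

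The promoters of 5 members are shown because HIF targets are recognised by the DNA element that HIF binds, whose core is ACGTG or GCGTG. Each window runs from 250 bases before to 50 bases after an annotated start of the gene, read 5' to 3' on the gene's strand from RefSeq on GRCm38.p6, and capitals mark every match to either core on either strand. An E-box, CACGTG, which other transcription factors bind, contains the core ACGTG on both strands and is marked as 1 site. Bnip3, Pdk1, Slc16a3 and Pfkp were at least 2-fold lower on both RASSF9-/- arrays, and Slc16a1 was higher on both.
Bnip3: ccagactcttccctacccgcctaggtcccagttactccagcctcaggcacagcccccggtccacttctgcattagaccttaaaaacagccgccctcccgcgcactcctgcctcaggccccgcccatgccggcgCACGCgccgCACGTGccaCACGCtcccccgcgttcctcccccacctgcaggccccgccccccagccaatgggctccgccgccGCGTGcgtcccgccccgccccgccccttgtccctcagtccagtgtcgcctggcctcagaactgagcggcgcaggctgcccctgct
Pdk1: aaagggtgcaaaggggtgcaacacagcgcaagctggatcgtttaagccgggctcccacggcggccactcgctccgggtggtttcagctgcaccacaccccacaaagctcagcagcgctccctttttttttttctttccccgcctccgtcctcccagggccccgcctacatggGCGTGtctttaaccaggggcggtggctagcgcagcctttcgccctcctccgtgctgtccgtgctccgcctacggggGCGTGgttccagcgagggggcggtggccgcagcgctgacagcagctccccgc
Slc16a3: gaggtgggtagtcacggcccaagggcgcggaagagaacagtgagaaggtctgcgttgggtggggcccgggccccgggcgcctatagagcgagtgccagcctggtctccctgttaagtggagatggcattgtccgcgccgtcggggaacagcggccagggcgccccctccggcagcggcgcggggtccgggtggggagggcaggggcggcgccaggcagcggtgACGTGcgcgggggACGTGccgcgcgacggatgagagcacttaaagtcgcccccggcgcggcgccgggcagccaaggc
Pfkp: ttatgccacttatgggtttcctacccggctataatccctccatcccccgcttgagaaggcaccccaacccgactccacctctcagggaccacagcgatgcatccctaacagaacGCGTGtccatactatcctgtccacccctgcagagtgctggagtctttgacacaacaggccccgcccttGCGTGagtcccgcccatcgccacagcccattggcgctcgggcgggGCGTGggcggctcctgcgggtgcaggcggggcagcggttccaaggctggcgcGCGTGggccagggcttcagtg
Slc16a1: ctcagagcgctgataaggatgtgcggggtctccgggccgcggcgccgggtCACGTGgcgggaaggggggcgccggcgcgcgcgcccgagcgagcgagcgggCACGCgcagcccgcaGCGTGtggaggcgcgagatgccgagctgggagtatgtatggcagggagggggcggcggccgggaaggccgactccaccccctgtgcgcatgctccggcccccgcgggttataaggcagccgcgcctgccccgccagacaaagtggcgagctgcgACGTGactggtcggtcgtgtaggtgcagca
The Bnip3 window (chr7:138909457-138909756, minus strand) holds 4 sites, 1 of which is an E-box, at -117, -108, -99 and -35 from the start. The Pdk1 window shown (chr2:71872974-71873273, plus strand) holds 2 sites, at -78 and -2. The window of another annotated start of Pdk1 (chr2:71874654-71874953, plus strand) holds no match. The Slc16a3 window (chr11:120948817-120949116, plus strand) holds 2 sites, at -27 and -14. The Pfkp window (chr13:6648722-6649021, minus strand) holds 4, at -136, -68, -23 and 29. The Slc16a1 window (chr3:104638414-104638713, plus strand) holds 4, at -200, -149, -134 and 20, of which 1 is an E-box. Among the 5 genes shown, Bnip3, Pfkp and Slc16a1 thus held 4 sites each, and Pdk1 and Slc16a3 held 2 each in the windows printed. Windows were found for 34 of the 37 genes, and 31 of these genes (91.2%) had at least 1 match in a window, against 46.7% of 27025 genes in the same table. All 7 members with a window that were at least 2-fold lower on both arrays had a match, and so did all 5 that were higher on both when Pdk4, which was too dim to test, is counted with the 4 tested. Counted by window, 39 of 49 members' windows (79.6%) and 43.8% of 32851 windows held a match. A match is a description of the letters and not a measured binding site. The members were chosen as genes of glycolysis and of the HIF pathway. A larger share with a match than over all genes can come from that choice and says nothing about these arrays.

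Uptake of glucose is the step that feeds the pathway. Slc2a1, which encodes the widely expressed transporter GLUT1, had signals of 3681 and 2276 on the RASSF9-/- arrays, against 5669 on the WT array. Both RASSF9-/- arrays were below WT, with a log2 fold change of -0.97 ± 0.41 (standard error, written SE below, with limma adjusted p = 0.908). Its 3 probe sets were all lower on both RASSF9-/- arrays, with log2 fold changes of -1.28 to -0.97. Slc2a3 encodes GLUT3, a transporter of high affinity known best from neurons. It had 28.2 and 164 on the RASSF9-/- arrays, against 870 on the WT array. The WT value stood well apart from both, but RASSF9-/- array 1 was in the background. With that array set to the background level, the difference is given as at least 7.67-fold lower in RASSF9-/-. The adjusted p of 0.564 from limma belongs to the signals as deposited and not to this bound. With the mean of all its probe sets the log2 fold change was -1.56, a mean that takes in probe sets in the background on every array. The other probe set above background on the WT array gave -3.37, with 15.3 and 83.5 on the RASSF9-/- arrays, against 369 on the WT array.

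Hexokinases phosphorylate glucose and hold it in the cell. Hk1 had signals of 1285 and 1414 on the RASSF9-/- arrays, against 1298 on the WT array. The RASSF9-/- values lay on opposite sides of WT and within 0.12 of it on the log2 scale. Hk2, the hexokinase regulated by insulin and hypoxia, had 1637 and 1364 on the RASSF9-/- arrays, against 872 on the WT array. It was higher on both RASSF9-/- arrays, by 0.91 and 0.65 on the log2 scale, with a log2 fold change of 0.78 ± 0.38 (SE, limma adjusted p = 0.988). Hk2 is itself a known HIF target, and its side of WT was the opposite of that of Slc2a1. For Gpi1, the glucose phosphate isomerase that follows hexokinase, no probe set carries this symbol alone in the annotation used, and no value is given.

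Phosphofructokinase makes fructose bisphosphate from 3 kinds of subunit. The liver-type subunit Pfkl had signals of 1774 and 1810 on the RASSF9-/- arrays, against 3670 on the WT array. The RASSF9-/- arrays lay close together, and Pfkl was 2.05-fold lower, a log2 fold change of -1.03 ± 0.34 (SE, limma adjusted p = 0.732). Of its 3 probe sets 2 were lower on both arrays. The remaining one was near background, with 115 and 112 on the RASSF9-/- arrays, against 105 on the WT array. The platelet-type subunit Pfkp had 927 and 663 on the RASSF9-/- arrays, against 2191 on the WT array. It was 2.80-fold lower, a log2 fold change of -1.48 ± 0.42 (SE, limma adjusted p = 0.553), and its second probe set gave -0.76. Averaged over all their probe sets, dim ones included, neither gene was at least 2-fold lower on both arrays. The muscle-type subunit Pfkm had 579 and 280 on the RASSF9-/- arrays, against 432 on the WT array. Its RASSF9-/- arrays spanned the WT value, and whether the subunits differ from each other was not tested.

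Pfkfb3 and Pfkfb4 encode enzymes that make and break fructose bisphosphate of the kind that activates phosphofructokinase. Pfkfb3 had signals of 136 and 271 on the RASSF9-/- arrays, against 211 on the WT array. Pfkfb4 had 512 and 1148 on the RASSF9-/- arrays, against 732 on the WT array. For both, RASSF9-/- array 1 was below WT and RASSF9-/- array 2 above it, so the groups overlapped. The log2 fold changes were -0.14 ± 0.64 for Pfkfb3 and 0.07 ± 0.57 for Pfkfb4 (SE).

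Aldolases split the 6-carbon sugar into a pair of triose phosphates. Aldoa, the main aldolase of most tissues, had signals of 21533 and 15436 on the RASSF9-/- arrays, against 18433 on the WT array. The RASSF9-/- arrays lay on either side of WT, and over its 5 probe sets the log2 fold changes ran from -0.40 to -0.02. Aldoc, the form known from brain, had 955 and 173 on the RASSF9-/- arrays, against 2213 on the WT array. Both were below WT, with log2 differences of -1.21 and -3.68, and the RASSF9-/- arrays differed widely from each other. Its log2 fold change was -2.44 ± 0.94 (SE, limma adjusted p = 0.845), or 5.44-fold lower in RASSF9-/-.

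The enzymes from triose phosphate to pyruvate follow. Tpi1, triose phosphate isomerase, had signals of 11597 and 9951 on the RASSF9-/- arrays, against 16405 on the WT array, a log2 fold change of -0.61 ± 0.31 (SE). Pgk1, which makes ATP from bisphosphoglycerate, had 19000 and 14205 on the RASSF9-/- arrays, against 22133 on the WT array, a log2 fold change of -0.43 ± 0.33. Both were lower on both RASSF9-/- arrays with each of their 3 probe sets, and neither passed the test (limma, adjusted p of 0.997 and 1.00). Pgam1, phosphoglycerate mutase, had 8739 and 10401 on the RASSF9-/- arrays, against 11990 on the WT array, a log2 fold change of -0.33 ± 0.32. Pkm, pyruvate kinase, had 15829 and 23817 on the RASSF9-/- arrays, against 21504 on the WT array, with the RASSF9-/- values on either side of WT. Eno2, the neuronal enolase, was near background throughout, at 136 and 51.6 on the RASSF9-/- arrays and 87.2 on the WT array. No probe set carries only the symbol of Eno1, the common enolase. Gapdh is not among the members and has no probe set with its symbol alone, and its 3' control probe set read 35014 and 29272 on the RASSF9-/- arrays, against 25616 on the WT array.

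**Figure D2:**
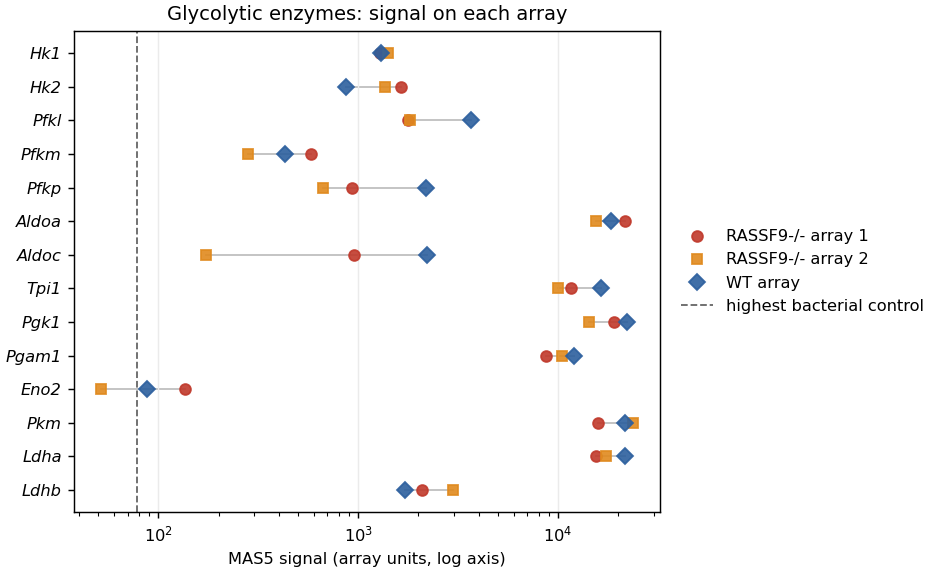
MAS5 signal (horizontal log axis) of the 14 glycolytic enzymes with a probe set, 1 row for each gene, with a circle for RASSF9-/- array 1, a square for RASSF9-/- array 2, a diamond for the WT array and a dashed line at the background level of 78.4. Pfkl, Pfkp and Aldoc have both RASSF9-/- points at least 2-fold under WT, whereas Hk2 and Ldhb have both above it.

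Lactate dehydrogenase is built from A and B chains. Ldha, the chain induced by hypoxia, had signals of 15544 and 17422 on the RASSF9-/- arrays, against 21670 on the WT array, a log2 fold change of -0.40 ± 0.31 (SE, limma adjusted p = 1.00). Ldhb, the chain of aerobic tissues such as heart, had 2078 and 2978 on the RASSF9-/- arrays, against 1721 on the WT array, a log2 fold change of 0.53 ± 0.39 (SE, limma adjusted p = 1.00). The chains thus lay on opposite sides of WT, and neither difference passed the test. All 4 probe sets of Ldhb were higher on both RASSF9-/- arrays, with log2 fold changes of 0.53 to 1.16.

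The lactate transporters also lay on opposite sides of WT. Slc16a3 encodes MCT4, the exporter of strongly glycolytic cells, whose gene HIF induces. Its signals were 381 and 285 on the RASSF9-/- arrays, against 1120 on the WT array. It was 3.40-fold lower in RASSF9-/-, a log2 fold change of -1.77 ± 0.47 (SE, limma adjusted p = 0.524). Slc16a1 encodes MCT1, a transporter that moves lactate in either direction. Its signals were 1326 and 752 on the RASSF9-/- arrays, against 432 on the WT array. It was 2.31-fold higher in RASSF9-/-, a log2 fold change of 1.21 ± 0.50 (SE, limma adjusted p = 0.894), and RASSF9-/- array 2 fell short of 2-fold with a log2 difference of 0.80. The difference between the transporters was not tested.

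Pyruvate dehydrogenase kinases switch off the enzyme that admits pyruvate to the citric acid cycle. Pdk1, the kinase best known as a HIF target, had signals of 266 and 336 on the RASSF9-/- arrays, against 1281 on the WT array. The RASSF9-/- arrays lay close together, and the log2 fold change was -2.10 ± 0.46 (SE, limma adjusted p = 0.364), or 4.28-fold lower. Its 3 probe sets gave -2.10 to -1.58. Pdk2, a widely expressed kinase, had 124 and 64.6 on the RASSF9-/- arrays, against 274 on the WT array. As RASSF9-/- array 2 was in the background, Pdk2 is given as at least 2.79-fold lower in RASSF9-/-. The adjusted p of 0.910 from limma belongs to its signals as deposited and not to this bound. Pdk3 had 431 and 525 on the RASSF9-/- arrays, against 332 on the WT array, a log2 fold change of 0.52 ± 0.47 (SE, limma adjusted p = 1.00). Pdk4, the kinase induced by fasting, was too dim to test, at 73.7 and 103 on the RASSF9-/- arrays and 66.7 on the WT array. So 2 of the 4 kinases lay below WT on both RASSF9-/- arrays and 2 lay above it, of which Pdk4 was in the background on RASSF9-/- array 1 and on the WT array.

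Bnip3 encodes a protein of the outer mitochondrial membrane that marks mitochondria for mitophagy and is a well-known HIF target. Its signals were 940 and 491 on the RASSF9-/- arrays, against 2357 on the WT array. Both RASSF9-/- arrays were below WT, with log2 differences of -1.33 and -2.26. Bnip3 was 3.47-fold lower in RASSF9-/-, a log2 fold change of -1.79 ± 0.50 (SE, limma adjusted p = 0.553). The probe sets of its relative Bnip3l also carry the symbol of a pseudogene, so no value is given for it.

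**Figure D3:**
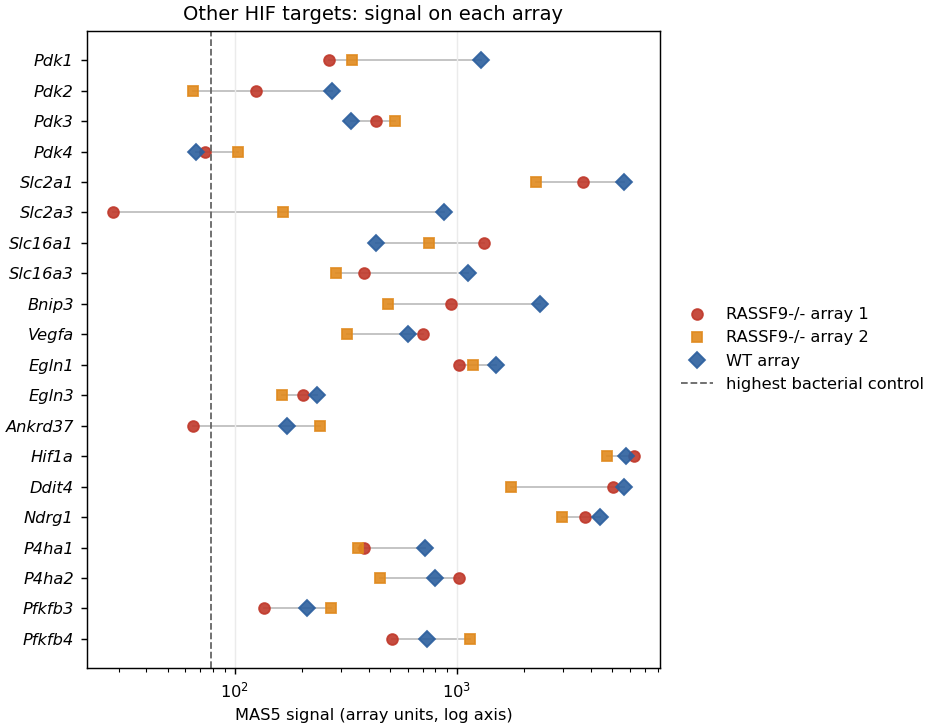
MAS5 signal (horizontal log axis) of the 20 other HIF targets with a probe set, 1 row for each gene, with a circle for RASSF9-/- array 1, a square for RASSF9-/- array 2, a diamond for the WT array and a dashed line at the background level of 78.4. Pdk1, Slc16a3 and Bnip3 have both RASSF9-/- points well under WT and above background, Slc16a1 has both above WT, and Hif1a has its RASSF9-/- points on either side of WT.

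The transcript of the oxygen-regulated subunit itself was close to WT. Hif1a had signals of 6271 and 4733 on the RASSF9-/- arrays, against 5754 on the WT array, a log2 fold change of -0.08 ± 0.35 (SE). The RASSF9-/- arrays lay on either side of WT. The arrays measure transcripts, and the level of the HIF protein was not measured. Egln1 and Egln3 encode prolyl hydroxylases that tag HIF for degradation and are themselves induced by HIF. Egln1 had 1016 and 1181 on the RASSF9-/- arrays, against 1502 on the WT array, and Egln3 had 203 and 163 on the RASSF9-/- arrays, against 234 on the WT array. With these probe sets both were lower on both RASSF9-/- arrays by less than 2-fold. The log2 fold changes were -0.46 ± 0.38 for Egln1 and -0.36 ± 0.55 for Egln3, and a second Egln1 probe set gave 0.09. A dimmer Egln3 probe set gave -2.28, with 16.2 and 32.9 on the RASSF9-/- arrays, both in the background, against 112 on the WT array.

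Vegfa, Ankrd37, Ddit4 and Ndrg1 are further classical HIF targets. Vegfa, the growth factor of blood vessels, had signals of 701 and 321 on the RASSF9-/- arrays, against 599 on the WT array. Ankrd37, an ankyrin repeat gene with strong HIF sites in its human promoter, had 64.7 and 242 on the RASSF9-/- arrays, against 172 on the WT array. In both genes the RASSF9-/- arrays lay on either side of WT. Ddit4, also called Redd1, an inhibitor of mTOR signalling, had 5019 and 1745 on the RASSF9-/- arrays, against 5655 on the WT array. RASSF9-/- array 2 was well below WT and RASSF9-/- array 1 close to it, so the log2 fold change of -0.93 ± 0.62 (SE) rested mainly on 1 array. Ndrg1, a gene of differentiation and stress in epithelia, had 3770 and 2982 on the RASSF9-/- arrays, against 4407 on the WT array. It was lower on both arrays, a log2 fold change of -0.39 ± 0.35, and 4 of its 5 probe sets were lower on both.

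P4ha1 and P4ha2 encode catalytic subunits of the prolyl hydroxylase that modifies collagen. P4ha1 had signals of 381 and 359 on the RASSF9-/- arrays, against 718 on the WT array. The RASSF9-/- arrays lay close together below WT, a log2 fold change of -0.96 ± 0.45 (SE, limma adjusted p = 0.959), and its other probe set gave -0.70. P4ha2 had 1019 and 448 on the RASSF9-/- arrays, against 793 on the WT array. Its RASSF9-/- arrays spanned the WT value, with a log2 fold change of -0.23 ± 0.58 (SE).

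Different probe sets of a gene gave a check on single readings, although they share the RNA of each array. The members have 72 probe sets of their own symbol, of which 61 reached the filter on dim signals, and 14 members have more than 1 of these. Every probe set was lower on both RASSF9-/- arrays for 6 members, Pfkp, Tpi1, Pgk1, Pdk1, Slc2a1 and P4ha1. Every probe set was higher on both for 1 member, Ldhb. For Pfkl and Egln1 1 probe set lay above WT on both arrays while the others lay below. That of Pfkl was near background. Aldoc, Bnip3, Slc16a3, Slc16a1, Slc2a3 and Pdk2 have 1 probe set each that reached the filter and therefore had no such check.

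**Figure D4:**
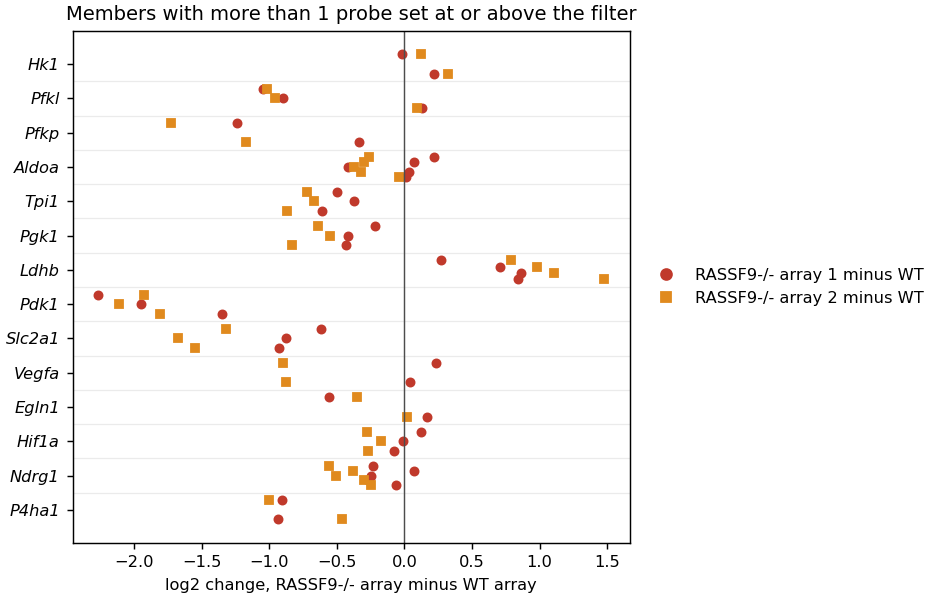
Log2 difference from the WT array (horizontal axis) of every probe set at or above the filter for the 14 members with more than 1, with a circle for RASSF9-/- array 1 and a square for RASSF9-/- array 2 and the probe sets of a gene in rows of their own. All points of Pdk1, Slc2a1 and Tpi1 lie below 0, all points of Ldhb lie above it, and the points of Vegfa lie on both sides.

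Neighbouring pathways were read from lists of genes that are not members. In none of them did a gene differ after adjustment over all genes tested (limma). For comparison with the counts below, 33.6% of all genes tested were higher and 32.7% lower on both RASSF9-/- arrays. Of 8 genes tested for the entry of pyruvate into mitochondria, 3 were higher and 2 lower on both RASSF9-/- arrays, with a median log2 fold change of 0.04. Pdha1, the subunit that the pyruvate dehydrogenase kinases phosphorylate, had 4760 and 4890 on the RASSF9-/- arrays, against 5428 on the WT array. Of 6 pentose phosphate genes tested, 1 was higher and 2 were lower on both, with a median of 0.06. Among these Tkt, transketolase, had 4340 and 5532 on the RASSF9-/- arrays, against 9095 on the WT array, a log2 fold change of -0.89 ± 0.34 (SE, limma adjusted p = 0.829). The median of neither list was far from that of all genes tested.

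Of 7 further glycolysis genes tested, such as minor isozymes, 1 was higher and 2 were lower on both RASSF9-/- arrays, with a median log2 fold change of 0.03. Of 7 glycogen genes tested, 2 were lower on both and 5 opposite, with a median of -0.14. Pygl, liver glycogen phosphorylase, had 298 and 59.6 on the RASSF9-/- arrays, against 510 on the WT array, and RASSF9-/- array 2 was in the background. Of the gluconeogenesis genes only 2 of 5 were bright enough to test. Of 15 sugar and lactate transport genes with a probe set, only 8 were bright enough to test. Most of the dimmer ones lay below WT on both RASSF9-/- arrays, and the others were higher on both or opposite. Of the 8 tested, 5 were lower and 1 was higher on both, with a median of -0.62. Slc2a4, the insulin-responsive transporter GLUT4, had 142 and 102 on the RASSF9-/- arrays, against 376 on the WT array, and Slc2a12 had 159 and 132 on the RASSF9-/- arrays, against 317 on the WT array. Slc16a10, an amino acid transporter, lay on the other side, with 197 and 121 on the RASSF9-/- arrays and 86 on the WT array.

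Other HIF targets outside the members lay on both sides of WT. Of 22 tested, 9 were lower and 7 higher on both RASSF9-/- arrays, where 32.7% and 33.6% of all genes tested were. The median log2 fold change was -0.17. By 2-fold or more on both, 3 of them lay below WT and 2 above it, where 2.24% and 2.89% of all genes tested did. Igfbp3, a binding protein of insulin-like growth factors, had 10819 and 18096 on the RASSF9-/- arrays, against 3106 on the WT array, a log2 fold change of 2.17 ± 0.40 (SE, limma adjusted p = 0.323). Angptl4, an inhibitor of lipoprotein lipase that PPAR factors also induce, had 1090 and 1639 on the RASSF9-/- arrays, against 359 on the WT array, a log2 fold change of 1.90 ± 0.45 (SE, limma adjusted p = 0.394). Both genes lay above WT on both RASSF9-/- arrays, whereas Narf and Ak4 of the same list lay below it on both. Narf had 491 and 332 on the RASSF9-/- arrays, against 1181 on the WT array. Ak4, a mitochondrial adenylate kinase, had 771 and 567 on the RASSF9-/- arrays, against 1630 on the WT array. Of 8 genes of oxygen sensing, 3 were lower and 1 was higher on both, with a median of 0.00. Among them Epas1, which encodes the second oxygen-regulated HIF subunit, had 128 and 245 on the RASSF9-/- arrays, against 387 on the WT array, a log2 fold change of -1.12 ± 0.62 (SE). Hif1an, the asparaginyl hydroxylase that blocks HIF activity, had 642 and 648 on the RASSF9-/- arrays, against 861 on the WT array.

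**Figure D5:**
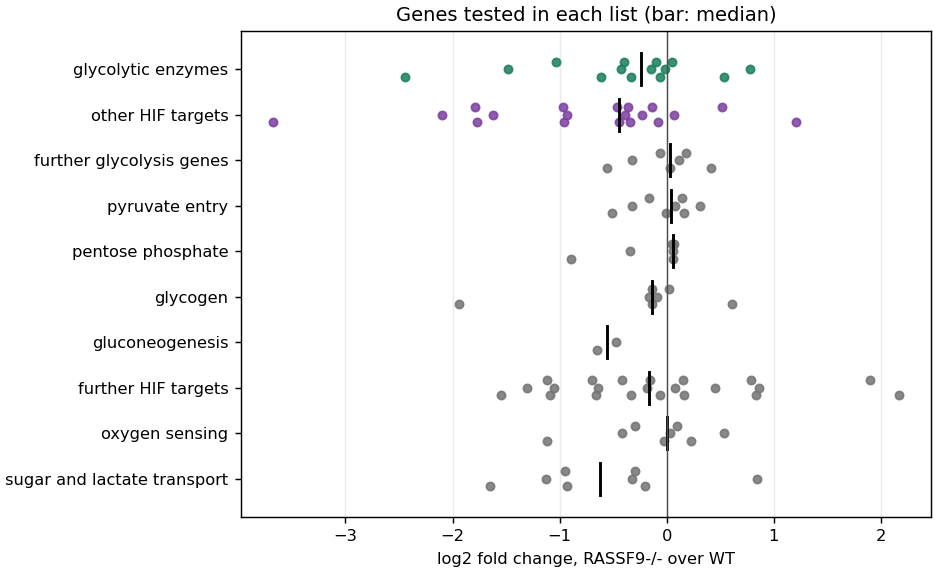
Log2 fold change (mean of both RASSF9-/- arrays minus WT, horizontal axis) of each gene tested, 1 point for each gene and 1 row for each list, with a bar at the median of the list. The medians are -0.24 for the glycolytic enzymes, -0.45 for the 19 other HIF targets tested and between -0.62 and 0.06 for the neighbouring lists, and further HIF targets reach up to 2.17.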

How the data were processed

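RNA from 2 RASSF9-/- and 1 WT keratinocyte culture was hybridized to Affymetrix mouse GeneChips. The deposited values are intensities on a linear scale, which the submitters' processing notes name as MAS5. The authors had scaled every array to a mean of 500 after trimming 2% from each end, which was checked here. The methods name GeneSpring and t-tests. Detection calls and image files were not used here.

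Log2 signals were used without further normalization. Of 45037 probe sets that are not controls, 34945 have 1 gene symbol in the platform annotation. Those with a mean log2 signal at or above the 50th percentile (82.75) were kept, with the brightest standing for its gene. RASSF9-/- was compared with WT over 11089 genes with limma 3.58.1 under R 4.3.3 (lmFit, then eBayes with a trend on intensity), with two-sided p-values adjusted by Benjamini-Hochberg. The fit has 1 residual degree of freedom and 5.31 prior degrees of freedom, so p-values measure only the spread between these samples, and precision is limited by the number of arrays. WT and RASSF9-/- array 1 share a date in their image names and RASSF9-/- array 2 has another, and no date term could be fitted. The procedure was tested on simulated data. Where an array was under 78.4, the highest signal of 27 bacterial control probe sets, its value was set to that level and the fold of the RASSF9-/- geometric mean given as a bound. Promoter windows came from RefSeq tables of GRCm38.p6. Where a gene has several starts, the window shown may be that of an alternative start.

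The members and lists were chosen with earlier results of these data known. All members are accounted for. From each further list, at most 4 genes with both RASSF9-/- arrays on one side of WT could be named, ranked by whichever of the 2 changes was smaller. The alternatives were quantile normalization, division by each array's median, a filter raised to the 75th percentile or dropped, the mean over all probe sets of a gene, a pseudocount of 32, no trend, background values set to the floor, the methods' t-test, folds of 1.5 and 3, and leaving out each RASSF9-/- array.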

Additional observations from a re-analysis of the deposited data

How the results depend on the processing

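No member was called under any alternative, with a lowest adjusted p of 0.182 (Aldoc). Over all genes tested, the 9 calls became 0 with quantile normalization, without the intensity trend or with background values set to the floor, 5 with the filter at the 75th percentile or a pseudocount of 32, and 4 with the methods' t-test after adjustment, for causes that were not tested. The median log2 fold change of the glycolytic enzymes was -0.36 with the filter at the 75th percentile, which tests fewer genes, and -0.47 to -0.33 with a RASSF9-/- array left out. That of the other HIF targets was -0.69 to -0.54 with an array left out. Of the 8 members at least 2-fold from WT on both arrays, 2 (Slc2a3 and Pdk1) reached 3-fold, where 87 of all genes tested were lower and 112 higher. Slc2a3 was bright enough to test only through the WT array. At 1.5-fold there were 12, of which 10 were lower and 2 higher, where 685 of all genes tested were lower and 785 higher. On each RASSF9-/- array alone, a count chosen after seeing the data, there were 10, with 10 lower on array 2 (8.91% of all genes tested) and 9 lower on array 1 (5.19%). Pfkl left the 8 with division by each array's median, which moved the median of all genes to -0.08 on RASSF9-/- array 1 and 0.11 on RASSF9-/- array 2. Pfkl, Pfkp and Slc2a3 left and Egln3 entered with the mean over all probe sets of a gene. Pdk2 left with the pseudocount, and Pdk2 and Slc2a3 with the higher filter. Apart from the values without an array, which are the differences given above for the other array, the log2 fold change of the members kept its sign under these alternatives except for Eno2, which changed to 0.24 with the floor. Slc2a3 moved to -1.56 with the mean of its probe sets. The WT array could not be left out. No paired analysis was possible because the groups share fewer than 2 replicate numbers.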
